A study of Mus musculus with 3 samples.

Results

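Potassium channel genes were followed across induced astrocytes (iAs), primary astrocytes (pAs) and mouse embryonic fibroblasts (MEFs). The genes were those whose symbol in the platform annotation starts with Kcn and that have at least 1 probe set carrying no other symbol. This gave 88 genes, measured by 95 probe sets, of 22180 genes with a probe set of their own. Another 2 Kcn symbols, those of an inward rectifier and of a noncoding RNA, were left out of the selection and are not analysed here, and neither are 4 probe sets that carry a Kcn symbol together with another symbol. The iAs were MEFs carrying a GFAP-GFP reporter, in which the promoter of the astrocyte gene Gfap drives a green fluorescent protein. They had been exposed for 25 days to VCSTO, a cocktail of OAC1, tranylcypromine, valproic acid, SB-431542 and CHIR99021, and were sorted for GFP. The sort thus used activity of the Gfap promoter, so Gfap itself is no independent marker of these cells. The pAs came from the cortex of mice at postnatal day 2, and the MEFs from E13.5 embryos. The labels repeat the VCSTO treatment on all 3 samples, and the methods apply it to the iAs only. The study set the iAs against pAs and against the MEFs from which iAs were made.

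Potassium channels let K+ leave or enter a cell along its gradient and so set the resting membrane potential and the shape and rate of electrical signals. Voltage-gated channels (Kv) open on depolarization and repolarize the membrane. Inward rectifiers (Kir) and two-pore channels (K2P) carry resting and leak currents, and calcium-activated channels link the membrane potential to intracellular Ca2+. Astrocytes are known for a negative resting potential carried by Kir and K2P channels, with which they take up and redistribute the K+ that active neurons release.

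Each cell type was hybridised to 1 Affymetrix Mouse Gene 2.0 ST array, so no difference below has a replicate error or a test, and each one compares these 3 arrays. Levels are log2 values normalized by robust multi-array average (RMA), averaged over the probe sets of a gene. The medians over all 41345 probe sets were 6.59 in iA, 6.57 in pA and 6.53 in MEF. A gene was counted as higher or lower where its levels differed by at least 1.5-fold, which is 0.58 on the log2 scale. The files give no detection calls, so wherever the dimmer of the compared levels was under the median of its array, the fold was taken from that median and is given as "at least". Levels of different genes come from different probes and were not set against each other.

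The labelled cell types were checked against marker genes. Of 8 astrocyte markers, 7 were higher in pA than in MEF, and the mean level of the 8 was 8.42 in iA, 11.25 in pA and 8.32 in MEF. In iA, 2 of the 8 were higher than in MEF and 5 were lower. Gfap was at 11.72 in iA, 13.26 in pA and 7.80 in MEF, whereas Aqp4, the water channel of astrocyte endfeet, was at 5.82 in iA, 12.20 in pA and 6.80 in MEF, and the glutamate transporter Slc1a3 was at 5.88 in iA, 12.32 in pA and 9.02 in MEF. The iA array was thus below its median for Aqp4 and Slc1a3, which go against an astrocyte label for the iA sample. S100b, which encodes a calcium-binding protein found in astrocytes and in Schwann cells, went the other way, at 10.31 in iA, 7.61 in pA and 6.40 in MEF. The paper reported by real-time PCR that Aqp4, Glast (Slc1a3), Glt-1 (Slc1a2) and Aldh1l1 were high in VCSTO-induced cells relative to MEFs. It also reported cells that stained for GFAP with S100β or ALDH1L1. On the arrays, Aldh1l1 was at 7.58 in iA, 11.42 in pA and 8.58 in MEF, 1.99-fold lower in iA than in MEF. Slc1a2 was at 5.96 in iA, 8.57 in pA and 5.96 in MEF, with iA and MEF below their medians. The array thus conflicts with the PCR for Aqp4, Slc1a3 and Aldh1l1 and shows no rise of Slc1a2 in iA. The reason was not tested. Neuronal markers averaged 8.67 in iA, 7.48 in pA and 7.45 in MEF (11 genes), and markers of Schwann cells and neural crest averaged 10.95 in iA, 8.01 in pA and 8.73 in MEF (6 of 8 genes measured). Fibroblast markers averaged 8.79 in iA, 7.37 in pA and 11.92 in MEF (8 genes), and muscle markers averaged 7.69 in iA, 8.01 in pA and 10.28 in MEF (8 genes). In such bulk RNA, fewer cells of a type and less RNA per cell cannot be told apart.

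Both iA and pA had more potassium channel genes above than below MEF. In iA, 12 of the 88 genes (13.6%) were higher than in MEF, where 8.84% of all 22180 genes were higher, and 6 (6.82%) were lower, where 10.0% of all genes were lower. In pA, 14 (15.9%) were higher than in MEF, against 12% of all genes, and 7 (7.95%) were lower, against 11.0%. In iA relative to pA, 8 (9.09%) were higher, against 8.67% of all genes, and 11 (12.5%) were lower, against 11.1%. These shares lie within a few percentage points of the background, and no difference from it was tested. The comparisons share arrays (both differences from MEF use the same MEF array), so each is given by its own values.

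The median difference of the 88 genes was 0 in each of the 3 comparisons, as it was over all genes. Altogether 28 genes (31.8%) differed by 1.5-fold between at least 1 pair of arrays, against 32% of all genes. Of the other 60, 23 had the same value on the 3 arrays (26.1% of the 88, against 20.3% of all genes), and 29 lay below the median on every array. At a 2-fold threshold, 10 of the 88 genes were higher in iA than in MEF, against 4.81% of all genes. In pA, 12 of the 88 were higher than in MEF, against 6.89%. Only 2 of the 88 were lower in iA than in MEF, against 5.05%, and 3 were lower in pA, against 6.13%. Relative to MEF, larger increases thus lay above the share of all genes and larger decreases below it, which was not tested. Among genes with differences of several fold, those highest in iA included Kcna2, Kcna6, Kcnq3 and Kcnn4. Those highest in pA included Kcnh5, Kcnd3, Kcnk1 and Kcnk2.

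**Figure D1:**
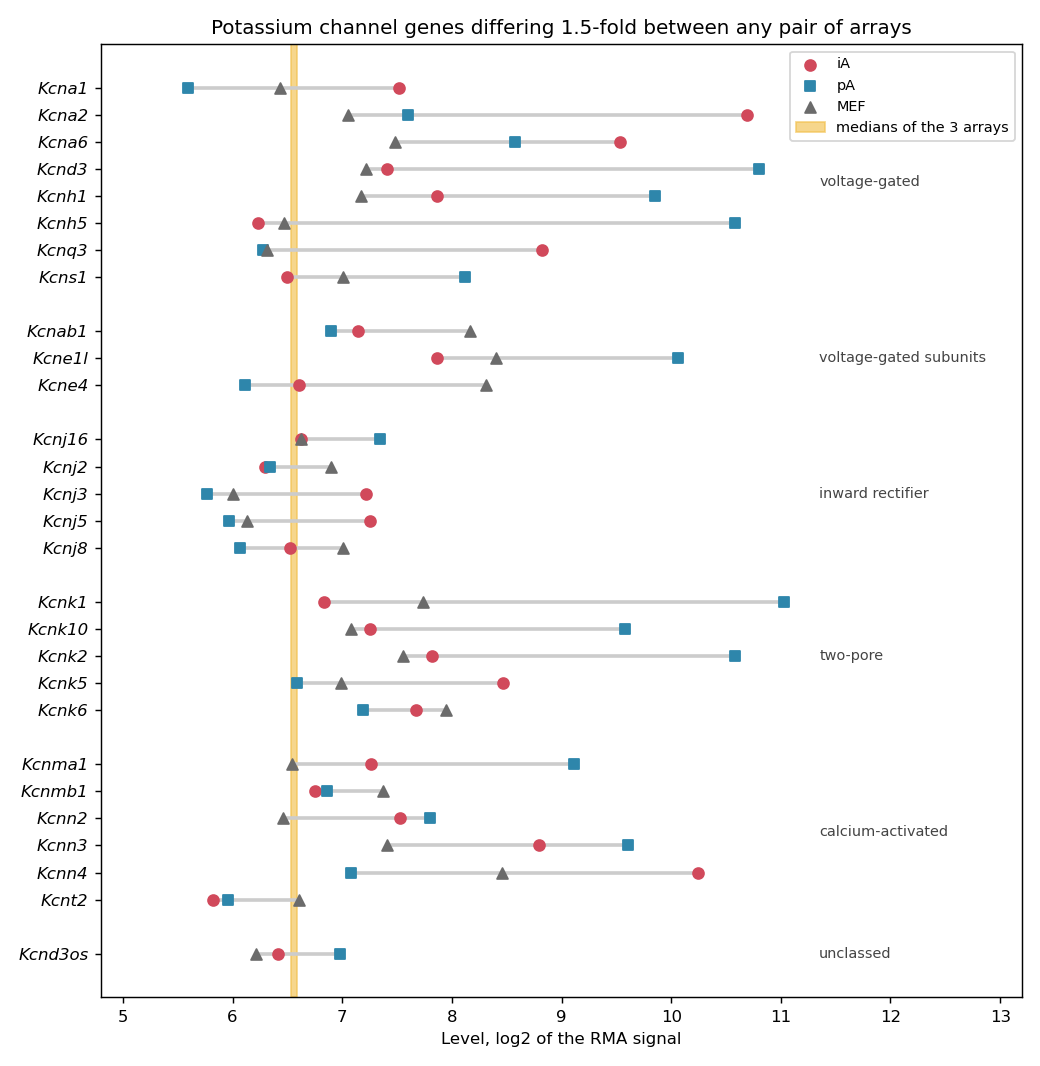
Level (x axis, log2 of the RMA signal) of the 28 potassium channel genes past the threshold in 1 or more comparisons, by class from top to bottom, with 1 point per array (circle iA, square pA, triangle MEF) and no error bars, since each cell type had 1 array. The band covers the medians of the 3 arrays, from 6.53 to 6.59, and genes such as Kcna2 (10.69 in iA) and Kcnk1 (11.03 in pA) show 1 array far to the right of the other ones.

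Of the 36 pore-forming voltage-gated genes, 5 (13.9%) were higher in iA than in MEF, against 8.84% of all genes. None (0%) were lower, against 10.0%. In at least 1 comparison 8 (22.2%) passed the threshold, against 32% of all genes. Kcna2, which encodes the delayed rectifier Kv1.2 found beside the nodes of myelinated axons, was at 10.69 in iA, 7.60 in pA and 7.06 in MEF. It was 12.4-fold higher in iA than in MEF and 8.50-fold higher than in pA, whereas pA lay 1.46-fold above MEF, within the threshold. Only the iA array was high.

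Kcna6, which encodes Kv1.6 of the same family, was at 9.53 in iA, 8.57 in pA and 7.48 in MEF. It was 4.14-fold higher in iA and 2.13-fold higher in pA than in MEF, and 1.94-fold higher in iA than in pA, so its mean levels were graded. Only 1 of its 2 probe sets showed this grading, and the other was at 8.27 in iA, 7.78 in pA and 7.86 in MEF. Kcna1, which encodes Kv1.1, the usual partner of Kv1.2 in axons, was at 7.52 in iA, 5.60 in pA and 6.43 in MEF. It was at least 1.98-fold higher in iA than in MEF and at least 1.94-fold higher than in pA. In pA and in MEF it lay below the median, so the deposited difference of -0.83 between pA and MEF has no usable bound. Kcnq3, which encodes the Kv7.3 subunit of the M-current that damps repetitive firing, was at 8.82 in iA, 6.27 in pA and 6.31 in MEF. It was at least 4.88-fold higher in iA than in MEF and at least 4.77-fold higher than in pA, and both other arrays lay below their medians.

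Kcnh1, which encodes the ether-a-go-go channel EAG1, was at 7.86 in iA, 9.86 in pA and 7.17 in MEF. It was 1.62-fold higher in iA and 6.44-fold higher in pA than in MEF, and at 0.70 on the log2 scale its iA difference was the smallest of those counted as higher. Unlike the 3 Kv1 genes and Kcnq3, Kcnh1 was highest in pA.

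Not all chromosomal neighbours of these Kv1 genes were high in iA. Kcna2 lies on chromosome 3 between Kcna3 and Kcna10, which encode Kv1.3 and Kv1.8. Kcna3 was at 6.77 in iA, 6.41 in pA and 6.61 in MEF, and Kcna10 at 6.41 in iA, 6.41 in pA and 6.46 in MEF. Kcna1 and Kcna6 are neighbours on chromosome 6 and were both higher in iA, but Kcna5, which encodes Kv1.5 and adjoins Kcna1 on the other side, was at 6.10 in iA, 6.10 in pA and 6.27 in MEF. Of the 88 genes, 16 have another of the 88 as their next protein-coding neighbour in the RefSeq annotation, in 9 neighbouring pairs.

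Besides Kcna6 and Kcnh1, 3 further voltage-gated genes were higher in pA than in MEF. Kcnh5, which encodes EAG2, was at 6.23 in iA, 10.59 in pA and 6.47 in MEF. It was at least 16.6-fold higher in pA than in MEF and at least 16.0-fold lower in iA than in pA, with both iA and MEF below their medians. Kcnd3, which encodes Kv4.3, a channel of the rapidly inactivating A-type current, was at 7.41 in iA, 10.80 in pA and 7.22 in MEF, 12.02-fold higher in pA than in MEF and 10.5-fold lower in iA than in pA. In both genes iA stayed within 1.5-fold of MEF, and only the pA array was high.

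Kcns1, which encodes the silent subunit Kv9.1 that joins Kv2 channels, was at 6.50 in iA, 8.12 in pA and 7.01 in MEF. It was 2.16-fold higher in pA than in MEF and at least 2.90-fold lower in iA than in pA. Over the class, 5 genes (13.9%) were higher in pA than in MEF, against 12% of all genes. By deposited values 1 (2.78%) was lower, against 11.0%, namely Kcna1, with both levels below the medians. In iA, 4 (11.1%) were higher and 4 (11.1%) lower than in pA, against 8.67% and 11.1% of all genes. The 4 higher ones were Kcna1, Kcna2, Kcna6 and Kcnq3, and the 4 lower ones were Kcnd3, Kcnh1, Kcnh5 and Kcns1. Kcnd3os, a noncoding transcript named for its place opposite Kcnd3, was at 6.42 in iA, 6.98 in pA and 6.21 in MEF, at least 1.37-fold higher in pA than in MEF. It was highest on the same array as Kcnd3.

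Sequence upstream of these genes is shown for those with the largest differences from MEF, in order to set their promoters side by side. Each run holds the 250 bases before the transcription start that RefSeq lists (build GRCm38.p6), read 5′ to 3′ on the strand of the gene. Genes with several listed starts or none in the table, such as Kcnq3, were passed over. Capitals mark CG dinucleotides, the sites of DNA methylation. The first 3 belong to genes that were high in iA, Kcna2 at chr3:107101317-107101566 on the plus strand, Kcna6 at chr6:126740675-126740924 on the minus strand and Kcnn4, the calcium-activated channel gene described further on, at chr7:24370013-24370262 on the plus strand.
Kcna2: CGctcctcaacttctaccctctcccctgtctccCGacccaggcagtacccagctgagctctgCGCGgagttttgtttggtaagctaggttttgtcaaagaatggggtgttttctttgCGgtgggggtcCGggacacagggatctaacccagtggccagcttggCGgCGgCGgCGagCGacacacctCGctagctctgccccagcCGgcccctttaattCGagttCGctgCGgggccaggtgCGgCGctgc
Kcna6: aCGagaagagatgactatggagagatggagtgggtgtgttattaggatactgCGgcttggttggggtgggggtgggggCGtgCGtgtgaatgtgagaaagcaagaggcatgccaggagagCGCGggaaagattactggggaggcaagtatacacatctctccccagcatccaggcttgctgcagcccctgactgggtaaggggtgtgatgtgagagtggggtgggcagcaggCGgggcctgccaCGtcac
Kcnn4: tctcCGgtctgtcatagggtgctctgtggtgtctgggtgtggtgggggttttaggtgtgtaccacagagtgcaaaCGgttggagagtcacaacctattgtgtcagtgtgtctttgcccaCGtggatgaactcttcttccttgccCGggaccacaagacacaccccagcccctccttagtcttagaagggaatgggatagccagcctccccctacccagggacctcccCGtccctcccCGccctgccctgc
The other 3 belong to genes that were high in pA, Kcnh5 at chr12:75177333-75177582 on the minus strand, Kcnd3 at chr3:105451640-105451889 on the plus strand and the two-pore channel gene Kcnk1 at chr8:125994852-125995101 on the plus strand.
Kcnh5: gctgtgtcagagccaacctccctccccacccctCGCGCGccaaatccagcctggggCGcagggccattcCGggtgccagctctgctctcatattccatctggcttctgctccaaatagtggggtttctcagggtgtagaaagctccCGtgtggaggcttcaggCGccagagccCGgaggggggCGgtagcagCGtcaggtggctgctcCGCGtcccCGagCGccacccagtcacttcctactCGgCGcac
Kcnd3: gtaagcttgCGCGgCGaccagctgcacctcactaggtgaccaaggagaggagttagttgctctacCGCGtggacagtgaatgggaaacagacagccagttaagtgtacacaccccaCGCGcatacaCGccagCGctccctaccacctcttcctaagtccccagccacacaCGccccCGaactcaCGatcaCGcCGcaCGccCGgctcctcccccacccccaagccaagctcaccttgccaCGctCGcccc
Kcnk1: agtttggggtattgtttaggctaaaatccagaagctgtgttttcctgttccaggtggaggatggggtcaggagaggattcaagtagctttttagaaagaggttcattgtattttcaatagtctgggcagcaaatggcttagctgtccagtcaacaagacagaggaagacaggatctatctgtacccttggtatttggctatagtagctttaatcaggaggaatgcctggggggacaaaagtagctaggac

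The number of CG dinucleotides was 18 for Kcna2, 8 for Kcna6 and 6 for Kcnn4, and it was 16 for Kcnh5, 18 for Kcnd3 and 0 for Kcnk1. Promoters rich in CG and one without any thus occurred among genes high in pA. Promoters were listed for 68 of the 88 genes (93 promoters), with a median of 7 CG dinucleotides, against 6 over all 32851 listed promoters. The median was 10 for the genes higher in iA than in MEF (9 promoters of 9 genes) and 9.5 for those higher in pA than in MEF (20 promoters of 13 genes). The GC box GGGCGG, bound by Sp1, occurred on either strand in 55.6% of the promoters of genes higher in iA and in 40% of those of genes higher in pA, against 44.1% of the promoters of the 88 genes and 32.7% of all. The SOX core ACAAAG occurred on either strand in 11.1%, 15%, 11.8% and 16.5% of these same sets in that order. These motifs do not overlap, they were chosen after the levels had been seen, and a match describes letters only.

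Of 12 genes for subunits that join voltage-gated channels, 7 lay below the median on every array, as did 7704 of all 22180 genes. In at least 1 comparison 3 (25%) passed the threshold, against 32% of all genes. In iA, 0 were higher than in MEF, against 8.84% of all genes, and 2 (16.7%) were lower, against 10.0%. Kcnab1, which encodes the cytoplasmic subunit Kvβ1 that speeds inactivation of Kv1 channels, was at 7.15 in iA, 6.90 in pA and 8.17 in MEF, 2.03-fold lower in iA and 2.41-fold lower in pA than in MEF. Kcne4, which encodes a membrane subunit that inhibits several Kv channels, was at 6.60 in iA, 6.11 in pA and 8.31 in MEF, 3.26-fold lower in iA and at least 3.35-fold lower in pA than in MEF. For both genes MEF alone was high.

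Kcne1l, also called Kcne5 and a member of the same family as Kcne4, was at 7.87 in iA, 10.06 in pA and 8.40 in MEF. It was 3.15-fold higher in pA than in MEF and 4.57-fold lower in iA than in pA, and its iA difference from MEF of -0.53 lay just outside the threshold. Kcnip3, which encodes the calcium-binding protein calsenilin, also called DREAM, was at 8.85 in iA, 9.02 in pA and 8.93 in MEF and so was nearly equal on the 3 arrays. The other 8 subunit genes (Kcnab2, Kcnab3, Kcne1, Kcne2, Kcne3, Kcnip1, Kcnip2 and Kcnip4) stayed within 1.5-fold in every comparison.

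Of 13 inward rectifier genes, 2 (15.4%) were higher in iA than in MEF, against 8.84% of all genes, and 1 (7.69%) was lower, against 10.0%. Kcnj3, which encodes GIRK1, a subunit of the channels that G proteins open downstream of inhibitory receptors, was at 7.22 in iA, 5.76 in pA and 6.01 in MEF. It was at least 1.61-fold higher in iA than in MEF and at least 1.57-fold higher than in pA. Kcnj5, which encodes GIRK4, with which GIRK1 assembles in the heart, was at 7.26 in iA, 5.96 in pA and 6.13 in MEF, at least 1.65-fold higher in iA than in MEF and at least 1.61-fold higher than in pA. Both GIRK genes were above the median in iA only, and the neighbour of Kcnj5, Kcnj1, was at 5.68 on each of the 3 arrays. The other GIRK genes, Kcnj6 and Kcnj9, had the same value on the 3 arrays, below the medians.

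Kcnj2, which encodes the strong rectifier Kir2.1, was at 6.29 in iA, 6.34 in pA and 6.90 in MEF. It was at least 1.24-fold lower in iA than in MEF, by deposited values just inside the threshold at -0.61. Kcnj8, which encodes Kir6.1, the pore of vascular ATP-sensitive channels, was at 6.52 in iA, 6.07 in pA and 7.01 in MEF, and it was at least 1.36-fold lower in pA than in MEF. Abcc9, the sulfonylurea receptor that joins it, was at 7.00 in iA, 6.92 in pA and 7.30 in MEF. These genes were highest in MEF by small margins.

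Kcnj16, which encodes Kir5.1, a subunit that joins other inward rectifiers and is known from astrocytes and kidney, was at 6.63 in iA, 7.34 in pA and 6.63 in MEF. It was 1.65-fold higher in pA than in MEF and 1.65-fold lower in iA than in pA. Its neighbour on chromosome 11, Kcnj2, was not high in pA. The other 8 inward rectifier genes (Kcnj1, Kcnj4, Kcnj6, Kcnj9, Kcnj11, Kcnj12, Kcnj14 and Kcnj15) stayed within 1.5-fold in every comparison, Kcnj12 just so at 0.46 between iA and MEF.

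The two-pore genes held 3 of the genes highest in pA. Kcnk1, which encodes the leak channel TWIK-1, was at 6.83 in iA, 11.03 in pA and 7.74 in MEF. It was 9.82-fold higher in pA than in MEF, 18.4-fold lower in iA than in pA and 1.87-fold lower in iA than in MEF. It was the 1 gene of the 88 (1.14%) that was lower in iA than on both other arrays, where 3.10% of all genes were.

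Kcnk2, which encodes TREK-1, a leak channel opened by stretch and by arachidonic acid, was at 7.82 in iA, 10.58 in pA and 7.55 in MEF. It was 8.16-fold higher in pA than in MEF and 6.76-fold lower in iA than in pA. Kcnk10, which encodes the related TREK-2, was at 7.25 in iA, 9.57 in pA and 7.08 in MEF, 5.65-fold higher in pA than in MEF and 5.00-fold lower in iA than in pA. TWIK-1, TREK-1 and TREK-2 are leak channels described in astrocytes, and for both TREK genes iA lay within 1.5-fold of MEF. The remaining member of the TREK family, Kcnk4, had the same value on the 3 arrays.

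Kcnk5, which encodes the alkali-activated channel TASK-2, went the other way and was at 8.47 in iA, 6.59 in pA and 6.99 in MEF. It was 2.80-fold higher in iA than in MEF and 3.67-fold higher than in pA. Its neighbour on chromosome 14, Kcnk16, was at 6.63 in iA, 6.38 in pA and 6.63 in MEF. Kcnk6, which encodes TWIK-2, was at 7.67 in iA, 7.19 in pA and 7.94 in MEF, 1.69-fold lower in pA than in MEF. Over the class, 1 two-pore gene (7.69%) was higher and 1 (7.69%) lower in iA than in MEF, against 8.84% and 10.0% of all genes. In pA, 3 (23.1%) were higher and 1 (7.69%) lower than in MEF, against 12% and 11.0%. In iA relative to pA, 1 (7.69%) was higher and 3 (23.1%) were lower, against 8.67% and 11.1%. The other 8 (Kcnk4, Kcnk7, Kcnk9, Kcnk12, Kcnk13, Kcnk15, Kcnk16 and Kcnk18) stayed within 1.5-fold in every comparison.

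**Figure D2:**
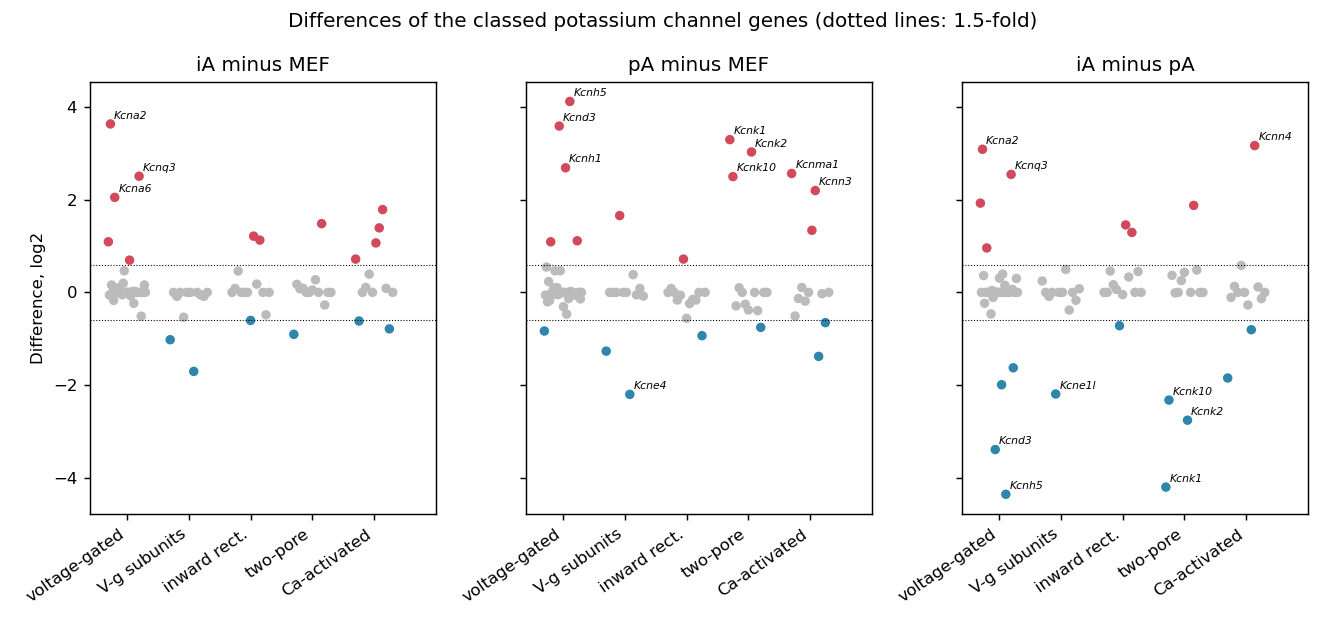
Log2 differences (y axis) of the 86 classed potassium channel genes, with 1 point per gene and panels for iA minus MEF, pA minus MEF and iA minus pA, red where higher and blue where lower by at least 1.5-fold (dotted lines) and grey otherwise. In the iA panel Kcna2 lies highest at 3.63, and in the pA panel Kcnh5 lies highest at 4.12, with 3 two-pore genes named.

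Of 12 genes of the calcium-activated family, 4 (33.3%) were higher in iA than in MEF, against 8.84% of all genes, and 2 (16.7%) were lower, against 10.0%. The 4 include Kcnma1, whose direction is uncertain, and the 2 include Kcnt2, with almost no measured difference, both described below. Kcnn4, which encodes the intermediate-conductance channel KCa3.1 known from lymphocytes, red cells and proliferating cells, was at 10.24 in iA, 7.08 in pA and 8.46 in MEF. It was 3.45-fold higher in iA than in MEF, 8.98-fold higher in iA than in pA and 2.60-fold lower in pA than in MEF. By deposited values Kcna1 was also counted as higher in iA and as lower in pA than in MEF, but in pA and MEF it lay below the medians, as given above.

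Among the small-conductance channels, 2 of 3 genes were higher than in MEF in both iA and pA. Kcnn3, which encodes SK3, was at 8.80 in iA, 9.60 in pA and 7.41 in MEF, 2.62-fold higher in iA and 4.58-fold higher in pA than in MEF and 1.75-fold lower in iA than in pA. Kcnn2, which encodes SK2, was at 7.53 in iA, 7.80 in pA and 6.46 in MEF, at least 1.99-fold higher in iA and at least 2.40-fold higher in pA than in MEF. Kcnn1, which encodes SK1, had the same value on the 3 arrays.

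Kcnma1, which encodes the pore of the large-conductance (BK) channel, averaged 7.27 in iA, 9.11 in pA and 6.55 in MEF, but its 2 probe sets differed. Probe set 17304012 was at 8.63 in iA, 6.38 in pA and 7.22 in MEF, and probe set 17548705 at 5.90 in iA, 11.84 in pA and 5.87 in MEF. By the first, Kcnma1 was 2.65-fold higher in iA than in MEF and at least 4.18-fold higher than in pA, and by the second it was at least 39.6-fold higher in pA than in MEF and at least 38.1-fold lower in iA than in pA. It was the only 1 of the 7 genes with 2 probe sets whose probe sets ran in opposite directions by the threshold between iA and pA, so the mean describes neither, and the direction for this gene is uncertain.

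Kcnmb1, which encodes the BK beta subunit of smooth muscle, was at 6.75 in iA, 6.86 in pA and 7.37 in MEF, 1.53-fold lower in iA than in MEF. All 8 muscle markers were lower in iA than in MEF, and 7 of the 8 were lower in pA. Their part in the level of Kcnmb1 was not tested. Kcnt2, which encodes the sodium-activated channel Slick, was at 5.82 in iA, 5.96 in pA and 6.61 in MEF, and counted from the medians it was at least 1.01-fold lower in iA and at least 1.03-fold lower in pA than in MEF, which leaves almost no measured difference. The other 6 genes (Kcnmb2, Kcnmb3, Kcnmb4, Kcnn1, Kcnt1 and Kcnu1) stayed within 1.5-fold in every comparison.

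Of the other genes with 2 probe sets, Kcna6 and Kcnj3 each owed their difference mainly to 1 of them. For Kcna6, probe set 17471160 was at 10.79 in iA, 9.37 in pA and 7.10 in MEF, and probe set 17463302 at 8.27 in iA, 7.78 in pA and 7.86 in MEF. For Kcnj3, probe set 17370883 was at 8.86 in iA, 6.17 in pA and 6.51 in MEF, and probe set 17385371 at 5.58 in iA, 5.36 in pA and 5.50 in MEF, below the medians on all arrays. The mean over probe sets thus lay between a probe set that differed and one that did not. In Kcnmb4, which encodes the neuronal BK beta subunit, probe set 17245085 was at 8.21 in iA, 7.05 in pA and 7.43 in MEF, 1.72-fold higher in iA than in MEF, whereas the other probe set had the same value of 6.71 on the 3 arrays and the mean stayed within the threshold. In Kcna4, which encodes the inactivating channel Kv1.4, the brighter probe set 17374053 was at 10.41 in iA, 10.56 in pA and 9.85 in MEF, 1.63-fold higher in pA than in MEF, and the mean again did not reach the threshold.

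**Figure D3:**
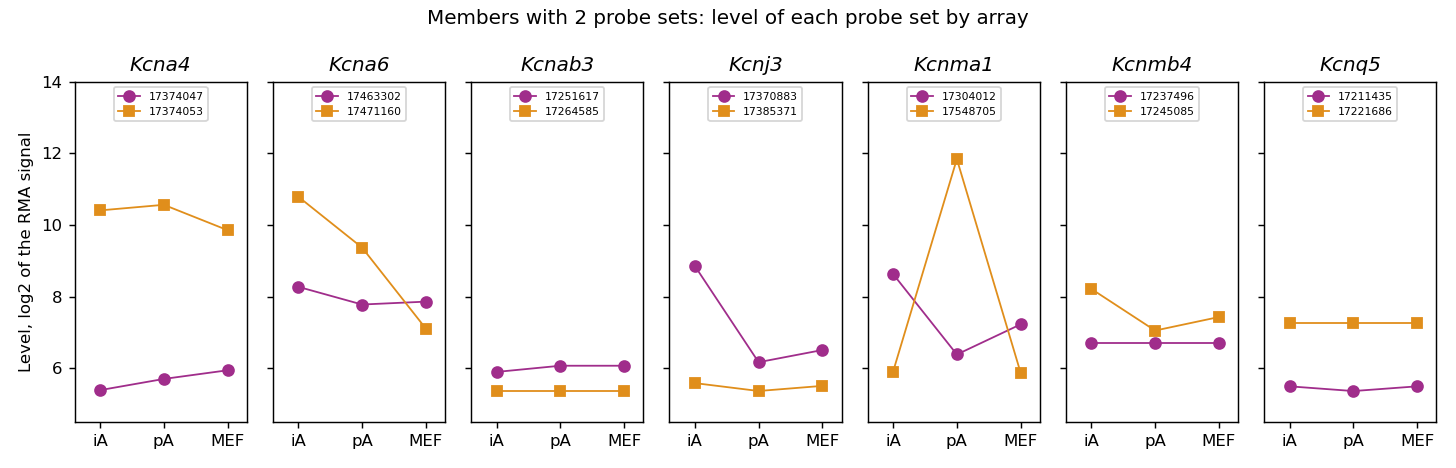
Level (y axis, log2 of the RMA signal) of both probe sets of each of the 7 genes measured by 2, on the iA, pA and MEF arrays from left to right, with 1 line and marker per probe set and no error bars (1 array each). In the Kcnma1 panel the probe sets cross, 1 at 8.63 in iA and 6.38 in pA and the other at 5.90 in iA and 11.84 in pA.

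In 8 of the 88 genes (9.09%) iA was higher than both other arrays by the threshold, against 4.40% of all genes. They were Kcna1, Kcna2, Kcna6 and Kcnq3 among voltage-gated, Kcnj3 and Kcnj5 among inward rectifier, Kcnk5 among two-pore and Kcnn4 among calcium-activated genes. By the same rule, 5 of 11 neuronal markers were higher in iA than on both other arrays (7 were higher when set against MEF only). The synaptic protein gene Snap25, with the largest difference of these, was at 11.62 in iA, 6.05 in pA and 6.60 in MEF. Elavl4 and Nefm, also among the 5, lay below the medians in pA and MEF. Counted from the medians, their bound over MEF was only 1.11-fold for Elavl4 and 1.14-fold for Nefm. Map2 and Stmn2 were highest in pA, and in iA Rbfox3, Tubb3, Elavl3 and Gap43 stayed within 1.5-fold of MEF. Of the 6 measured Schwann cell and neural crest markers, 4 were higher in iA than on both other arrays, among them the transcription factor gene Sox10 at 11.53 in iA, 7.18 in pA and 7.91 in MEF and the cadherin gene Cdh19 at 12.45 in iA, 7.00 in pA and 7.26 in MEF. Egr2, a transcription factor gene of myelinating Schwann cells, was lower in iA than in MEF, at 7.71 in iA, 7.35 in pA and 9.01 in MEF. The part of these markers in the levels of the 8 channel genes was not tested.

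The genes high in pA moved with other markers. The 7 astrocyte markers higher in pA than in MEF were joined by 2 of 6 markers of the oligodendrocyte lineage, Olig1 at 6.74 in iA, 10.84 in pA and 7.25 in MEF and Olig2 at 6.04 in iA, 9.92 in pA and 6.39 in MEF. Cspg4, which encodes NG2 and is on the same list, was lower in pA than in MEF, at 10.72 in iA, 7.60 in pA and 9.82 in MEF. The part of these markers in the levels of Kcnh5, Kcnd3, Kcnk1, Kcnk2 and Kcnk10 was not tested. Of 11 neuronal markers, 2 were higher and 2 lower in pA than in MEF.

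Genes just inside and just outside the threshold between iA and MEF differed little from each other. On the higher side Kcnh1 at 0.70 and Kcnma1 at 0.72 were the last counted, and Kcnf1, which encodes the silent subunit Kv5.1, at 0.47 and Kcnj12, which encodes Kir2.2, at 0.46 were the first left out. On the lower side Kcnj2 at -0.61 and Kcnmb1 at -0.62 were the last counted, and Kcne1l at -0.53 and Kcns1 at -0.51 the first left out. The 60 genes within the threshold in every comparison had levels from 4.81 to 9.02. They included 28 of the 36 voltage-gated pore genes, among them Kcnd2 and all the measured Kv3 genes (Kcnc1, Kcnc2 and Kcnc4), which serve fast-spiking neurons. The heart genes Kcnh2, which encodes hERG, and Kcnq1, which encodes the pore of the slow delayed rectifier, were also within it. Kcnrg, a regulator of Kv assembly and unclassed, was at 5.36 in iA, 5.34 in pA and 5.02 in MEF, below the medians.

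**Figure D4:**
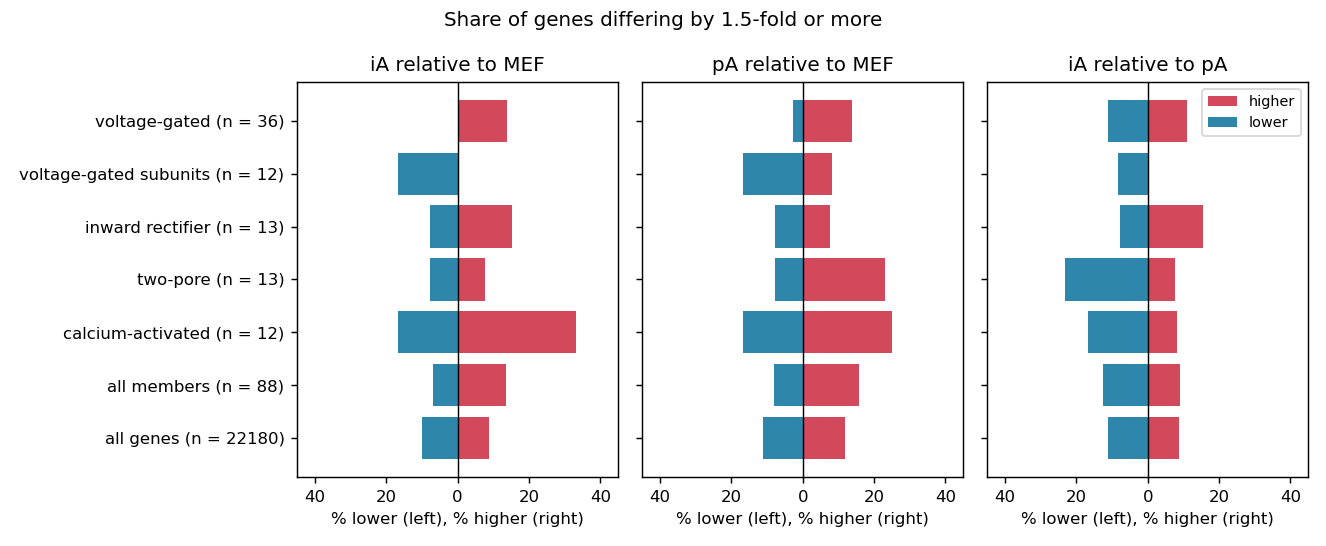
Share of genes (x axis, percent) higher to the right and lower to the left by at least 1.5-fold, in panels for iA relative to MEF, pA relative to MEF and iA relative to pA, for the 5 classes, the 88 potassium channel genes and all 22180 genes. Bars of classes rest on 12 to 36 genes each, and the bars of the 88 genes together lie close to those of all genes.

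The voltage-gated sodium and calcium channel genes, 36 pore and accessory genes, were set beside them as other carriers of electrical signals. Of these, 18 (50%) were past the threshold in at least 1 comparison, against 28 of the 88 potassium channel genes (31.8%) and 32% of all genes. The potassium channel genes thus lay close to the share of all genes, and the sodium and calcium channel genes lay above it. These differences were not tested. In iA, 7 of the 36 (19.4%) were higher than in MEF, against 8.84% of all genes, and 4 (11.1%) were lower, against 10.0%. In pA, 8 (22.2%) were higher than in MEF, against 12% of all genes, and 6 (16.7%) were lower, against 11.0%.

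Proteins that assemble with, anchor or regulate potassium channels were followed through a list of 18 genes. In iA, 5 (27.8%) were higher and 0 lower than in MEF, against 8.84% and 10.0% of all genes. In pA, 4 (22.2%) were higher and 1 (5.56%) was lower than in MEF, against 12% and 11.0%. Ank3, which encodes ankyrin-G, the anchor of sodium and Kv7 channels at the axon initial segment, was at 11.02 in iA, 8.12 in pA and 9.56 in MEF, 2.74-fold higher in iA and 2.71-fold lower in pA than in MEF. Lgi1, which encodes a secreted protein that binds the Kv1 complex and keeps it from inactivating, was at 7.86 in iA, 5.34 in pA and 5.48 in MEF, at least 2.51-fold higher in iA than in MEF and at least 2.46-fold higher than in pA. Ank3, Lgi1, Kcna2 and Kcnq3 were thus each highest in iA. Ank3 and Lgi1 were, however, the only 2 of the 18 partner genes that were higher in iA than on both other arrays. The other partner genes higher in iA than in MEF, Amigo1, Adam22 and Cntnap1, each had their highest level in pA.

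Cntnap1, which encodes Caspr of the junctions that flank nodes of Ranvier, was at 8.01 in iA, 9.33 in pA and 7.18 in MEF, 1.78-fold higher in iA and 4.44-fold higher in pA than in MEF. Its relative Cntnap2, which encodes the Caspr2 that clusters Kv1 channels, had the same value of 6.46 on the 3 arrays. Dpp10, a partner of Kv4 channels, lay below the median on every array, and the related Dpp6 was at 5.65 in iA, 6.60 in pA and 5.91 in MEF.

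K+ is returned to cells by the sodium pump and by cotransporters, of which 13 of 17 listed genes were measured. In iA, 3 (23.1%) were higher and 1 (7.69%) was lower than in MEF, against 8.84% and 10.0% of all genes. In pA, 5 (38.5%) were higher and 1 (7.69%) was lower than in MEF, against 12% and 11.0%. In iA relative to pA, 2 (15.4%) were higher and 4 (30.8%) lower, against 8.67% and 11.1%. Atp1b2, which encodes the glial beta subunit of the sodium pump, was at 11.07 in iA, 12.59 in pA and 7.89 in MEF, 9.00-fold higher in iA and 25.9-fold higher in pA than in MEF. It was thus high in both preparations. Fxyd6, which encodes a pump regulator, was at 6.53 in iA, 11.37 in pA and 9.81 in MEF, at least 9.31-fold lower in iA than in MEF and at least 27.6-fold lower in iA than in pA. Fxyd5, which encodes dysadherin of the same family, was at 11.32 in iA, 7.41 in pA and 10.37 in MEF, 1.93-fold higher in iA and 7.75-fold lower in pA than in MEF. These 2 pump regulators were thus opposite in the 2 preparations, and the K+-Cl- cotransporter genes Slc12a4, Slc12a5 and Slc12a7 stayed within 1.5-fold on all arrays.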

How the data were processed

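Gene expression was measured on Affymetrix Mouse Gene 2.0 ST arrays, 1 each for iAs, pAs and MEFs, grouped by the sample titles. The deposited values are log2 signals per probe set that the authors had RMA-normalized in Partek Genomics Suite. The submitters' processing notes also name MAS5, and no version is given in the sources used here. Raw intensities were not used, so the background correction could not be varied.

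Of 41345 probe sets, 23521 carry 1 gene symbol in the platform annotation, 1820 several and 16004 none. Only the first were used, giving 22180 genes, each the mean of its probe sets. All 88 potassium channel genes matched RefSeq by Entrez ID. Differences were computed with Python 3.11.15, numpy 2.4.6, pandas 2.3.3 and matplotlib 3.10.9, and called at the 1.5-fold of the study's methods. RefSeq was used for neighbours and promoter sequences (GRCm38.p6), since the files name no build.

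The genes, classes, lists and settings were chosen with earlier results of these data known. Named with their levels were all genes of the set that differed by 1.5-fold in any comparison with the higher level at or above that array's median, the 3 with the highest level on each array, those nearest the threshold between iA and MEF, and of each list of partners and of transport genes the 3 with the largest differences. Other genes named were chosen after their values were seen, as neighbours, relatives, partners or markers. The alternatives were a 2-fold threshold, the brightest probe set of a gene, dim genes filtered out, 32 added before taking logarithms, centring and a further quantile normalization. Flooring of levels at the array median was added after seeing the data.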

Additional observations from a re-analysis of the deposited data

How the results depend on the processing

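The number of genes lower in iA than in MEF fell to 3 with an offset of 32 and to 2 at a 2-fold threshold, against 6. The share of all genes also fell, to 8.72% and 5.05%, against 10.0%. The number lower in pA than in MEF was 3 at 2-fold and 4 with levels floored at the array median, a setting chosen after seeing the data, against 7. Of all genes, 6.13% and 9.73% were lower at these settings, against 11.0%. At 2-fold, 0 genes were lower in iA than in both other arrays, against 1, and the share of all genes was 1.18%, against 3.10%. The other counts stayed within 1.5 times under the settings run, but at 2-fold the shares of all genes fell by more. At 2-fold, 10 genes were higher in iA than in MEF, against 12, and 4.81% of all genes were, against 8.84%. In pA, 12 were higher than in MEF, against 14, and 6.89% of all genes were, against 12%. In iA, 7 were higher than on both other arrays, against 8, and 2.42% of all genes were, against 4.40%. The excess over the share of all genes thus depended on the threshold. The cause of these shifts was not tested. Of 84 differences of the 28 named genes, 58 passed the threshold. Of these, 15 no longer passed at 2-fold, 8 with the offset and 6 with levels floored. Flooring replaced Kcna1 by the array medians in both pA and MEF, so its 0.032 in pA minus MEF carries no measurement of the gene. With the brightest probe set, Kcnma1 gave 0.03 in iA minus MEF. Kcnj2 passed in pA minus MEF after quantile normalization (-0.59) and centring (-0.63). With 1 array per cell type the spread between cultures is unknown, and levels below the median carry no detection call.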
